A study of Mus musculus with 8 samples.

Results

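The Nkx genes studied here were 8 homeobox genes, Nkx2-1, Nkx2-2, Nkx2-3, Nkx2-4, Nkx2-5, Nkx2-9, Nkx6-1 and Nkx6-2, out of 21631 protein-coding genes on chromosomes 1 to 19 and X. They were chosen by name, and each was followed through all lists with its gene body on GRCm38 (the same assembly as mm10) widened by 5 kb on both sides. A chromatin loop was assigned to a gene when 1 of its anchors overlapped that window, a topologically associating domain (TAD) when it touched the window, and a CTCF peak when it lay in it. All 8 genes were found in the gene table. Of 8459 loops listed in ES cells, 42 had an anchor at an Nkx gene, against 8 of 8005 in lens epithelium and 4 of 7682 in lens fiber cells.

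Hi-C, which records pairs of DNA segments that lie close together in the nucleus, was performed on v6.5 mouse ES cells and on lens epithelium and lens fiber cells, with 2 replicates of each. The ES cells were a single wild-type line, labelled WT, grown without feeders on gelatin with LIF, at about 2000000 cells per replicate. Both lens groups came from untreated CD-1 mice at postnatal day 0.5 and were separated by hand under a microscope, with 30 lenses pooled per replicate, so that no value belongs to 1 animal. Cells of all Hi-C groups were fixed in 2.0% formaldehyde. ChIP-seq of CTCF, a zinc finger protein that binds DNA and halts cohesin at many loop anchors, was performed on both lens cell types of the same stock and age from 200 lenses, with 1 sample of each, and ES cell CTCF was not analysed here. The replicates were merged before loops and TADs were called, which leaves 1 list per cell type. No error between replicates could therefore be computed, and no test was made between cell types. No expression was measured, so the cell type labels could not be checked against marker genes.

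Nkx proteins are homeodomain transcription factors that set the identity of cells in the early embryo. Nkx2-1 is required for thyroid, lung and ventral forebrain, Nkx2-5 for the heart, Nkx2-3 for the spleen and gut, and Nkx2-2 and Nkx6-1 for ventral neural progenitors and the endocrine pancreas, while Nkx6-2 acts with Nkx6-1 in the neural tube. Nkx2-9 and Nkx2-4 are the neighbours on the chromosome of Nkx2-1 and Nkx2-2, in that order. In ES cells, which precede all of these organs, most such genes are silent.

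The 8 genes lie at 6 places in the genome. Nkx2-1 (chr12:56531935-56536908, minus strand) and Nkx2-9 (chr12:56611389-56613569, minus strand) are separated by 74.5 kb, and Pax9, a paired box gene of pharyngeal pouch and tooth development, begins 78.1 kb past Nkx2-9. Nkx2-4 (chr2:147083337-147085439, minus strand) and Nkx2-2 (chr2:147176485-147195434, minus strand) are 91.0 kb apart, and Pax1, the relative of Pax9, lies 166 kb past Nkx2-2. Both pairs thus have the same order, an Nkx pair followed by a Pax gene. The other 4 genes stand alone: Nkx2-3 at chr19:43612325-43615892 on the plus strand, Nkx2-5 at chr17:26838664-26844988, Nkx6-1 at chr5:101659184-101664711 and Nkx6-2 at chr7:139579376-139582797, the last 3 on the minus strand. Gene bodies ran from 2.10 kb in Nkx2-4 to 18.9 kb in Nkx2-2, whose span includes more than 1 transcript start, and its annotated start at 147186402 was used below.

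The promoters of the 4 paired genes are shown because ES cell loops joined the members of each pair and their Pax neighbours. Anchors of 5 or 10 kb covered each of the 4 start sites, though not in the loop between Nkx2-4 and Nkx2-2. Each runs from 250 bases before to 50 bases after the start on the gene's own strand, 5′ to 3′, in GRCm38.p6 from RefSeq, and the capitals mark every CG dinucleotide. They are Nkx2-1 at chr12:56536859-56537158, Nkx2-9 at chr12:56613235-56613534, Nkx2-2 at chr2:147186353-147186652 and Nkx2-4 at chr2:147085296-147085595, all on the minus strand.
Nkx2-1: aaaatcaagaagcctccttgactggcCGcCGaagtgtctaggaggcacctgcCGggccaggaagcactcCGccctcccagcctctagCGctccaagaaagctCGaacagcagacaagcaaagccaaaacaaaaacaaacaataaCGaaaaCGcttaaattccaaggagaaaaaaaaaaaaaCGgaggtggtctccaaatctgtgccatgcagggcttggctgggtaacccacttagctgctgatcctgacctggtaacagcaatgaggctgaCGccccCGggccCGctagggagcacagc
Nkx2-9: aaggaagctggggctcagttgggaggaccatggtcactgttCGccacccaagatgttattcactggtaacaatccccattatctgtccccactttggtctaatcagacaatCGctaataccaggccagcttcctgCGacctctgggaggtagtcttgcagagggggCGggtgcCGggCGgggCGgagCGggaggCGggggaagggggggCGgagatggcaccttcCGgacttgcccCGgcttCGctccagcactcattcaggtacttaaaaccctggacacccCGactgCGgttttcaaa
Nkx2-2: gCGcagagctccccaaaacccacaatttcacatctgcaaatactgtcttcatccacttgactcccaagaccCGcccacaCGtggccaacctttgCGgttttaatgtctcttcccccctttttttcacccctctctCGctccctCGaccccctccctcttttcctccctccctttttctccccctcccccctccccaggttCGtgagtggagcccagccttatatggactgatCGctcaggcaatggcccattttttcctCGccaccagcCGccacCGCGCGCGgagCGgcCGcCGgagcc
Nkx2-4: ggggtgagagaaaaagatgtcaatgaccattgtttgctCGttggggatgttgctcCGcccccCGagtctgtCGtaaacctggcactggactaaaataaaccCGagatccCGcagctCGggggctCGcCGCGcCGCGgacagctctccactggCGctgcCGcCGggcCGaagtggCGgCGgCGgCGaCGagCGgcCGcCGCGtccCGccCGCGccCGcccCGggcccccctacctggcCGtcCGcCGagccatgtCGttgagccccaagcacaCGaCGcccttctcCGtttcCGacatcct

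The 4 windows held 12, 15, 17 and 38 CG in that order. The other 4 promoters held 15 in Nkx2-3, 9 in Nkx2-5, 40 in Nkx6-1 and 32 in Nkx6-2. All 8 were above the median of 7 CG over 32851 promoters of the same length, and those of Nkx2-4 and Nkx6-1 stood at percentiles 95.0 and 96.1 of all promoters. The letters CCCTC, from which CTCF takes its name, searched on both strands, were in 5 of 8 promoters and in 66.0% of all. A TATAAA box was in 0 of 8, against 13.6% of all promoters, while GGGCGG was in 6 of 8 against 35.7% and CCAAT in 3 of 8 against 37.4%, each on either strand. No CTCF peak of either lens list overlapped any of the 8 promoters. The share of all promoters with a peak was not computed, so this cannot be read as a trait of the Nkx promoters.

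Every Nkx gene had more loops in ES cells than in either lens list. At least 1 loop was found at 8 of 8 genes in ES cells, where 37.3% of all protein-coding genes and 23.0% of those under 10 kb had one. In lens epithelium 5 of 8 had a loop, beside 36.2% of all and 20.2% of short genes, and in lens fiber cells 4 of 8, beside 34.5% and 19.3%. More loops in ES cells than in each lens list were seen for 8 of 8 members and for 16.2% of all genes. Among 356 other genes of developmental factor families (homeobox, paired box, forkhead, T-box, Sox, Gata and others, a list drawn up after the loop partners of the Nkx genes had been seen), 53.7% had more loops in ES cells and 70.2% had at least 1. The pattern was thus frequent among such genes. In lens, 51.4% of them had a loop in epithelium and 51.7% in fiber cells, beside the 5 of 8 and 4 of 8 members. The mean number of loops per gene was 5.5, 1.0 and 0.5 for the Nkx genes in ES cells, epithelium and fiber cells, 2.73, 0.975 and 0.924 for the other factor genes, and 0.65, 0.587 and 0.556 for all genes. In pooled nuclei, a contact made in few cells cannot be told apart from a weak contact made in many.

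**Figure D1:**
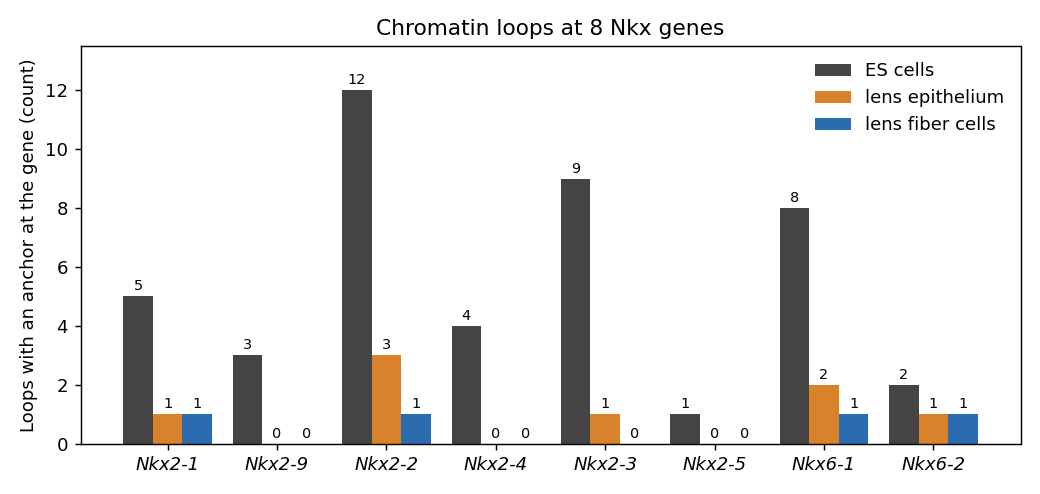
Number of listed loops (y axis) with an anchor at each of the 8 Nkx genes (x axis) for the 3 cell types, from 1 pooled list each and so without error bars. The ES cell count is the highest at every gene, from 1 at Nkx2-5 to 12 at Nkx2-2.

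Nkx2-2 held the most loops, with 12 in ES cells, 3 in epithelium and 1 in fiber cells. Only 1 of 21631 genes had more loops in ES cells than Nkx2-2. Nkx2-3 followed with 9, 1 and 0 loops, and 18 genes exceeded it in ES cells. Nkx6-1 had 8, 2 and 1 loops, and 31 genes exceeded it. At least 8 loops in ES cells were thus listed at 3 of 8 Nkx genes and at 0.259% of all genes and 8.15% of the other factor genes. Nkx2-1 had 5, 1 and 1 loops, and Nkx6-2 had 2, 1 and 1. Nkx2-4, Nkx2-9 and Nkx2-5 had 4, 3 and 1 loops in ES cells and none in either lens list. A loop in ES cells and in neither lens list was found for 3 of 8 members, against 9.51% of all genes and 20.5% of the other factor genes. A loop in all 3 lists was found for 4 of 8, against 21.3% and 40.7%. By the summed difference in loop number over the 3 lists, the gene on another chromosome most like Nkx2-2 was Barhl2, a homeobox gene of neural and retinal development, with 12, 4 and 2 loops and a difference of 2. Barx1 (11, 3 and 3 loops), Hmx1 and Pitx1 (11, 1 and 1 each) and Tfap2a (10, 2 and 1) were at a difference of 3, and 6 genes were at most that far.

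The longest loops at the Nkx genes were in ES cells, while the typical size differed from gene to gene. Over all loops at these genes, loop size, the distance between anchor midpoints, had a median of 942.5 kb in ES cells, with a range from 50 to 31125 kb. In lens epithelium the median was 255 kb (95 to 660 kb) and in lens fiber cells 382.5 kb (275 to 555 kb). The medians over whole lists were 220, 250 and 270 kb. With anchors of 5 and 10 kb alone, the medians were 470, 220 and 422.5 kb, over 25, 7 and 2 loops. ES cells and fiber cells were then nearly level, but the fiber value rests on 2 loops. At Nkx2-1 the ES cell median of 470 kb was next to the single lens loop of 475 kb, and at Nkx2-2 it was 447.5 kb against 220 kb in epithelium and 555 kb in fiber cells. The ES cell medians were highest at Nkx6-1 (2625 kb, against 475 kb in epithelium and 290 kb in fiber cells) and Nkx2-3 (1775 kb, against 100 kb in epithelium). Loops over 3 Mb made up 12 of the 42 ES cell loops at Nkx genes (28.6%) and 315 of all ES cell loops (3.72%), and there were 0 of 8 and 0 of 4 in lens epithelium and lens fiber cells. At least 1 loop over 3 Mb was found at 4 of 8 Nkx genes in ES cells (Nkx2-1, Nkx2-2, Nkx2-3 and Nkx6-1), against 1.88% of all genes and 35.4% of the other factor genes. In lens it was found at 0 of 8 genes, where the shares of all genes were 0.342% in epithelium and 0.310% in fiber cells. All 12 long loops had anchors of 25 kb, the coarsest of the 3 anchor widths, so the base at which they end is less exactly known.

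**Figure D2:**
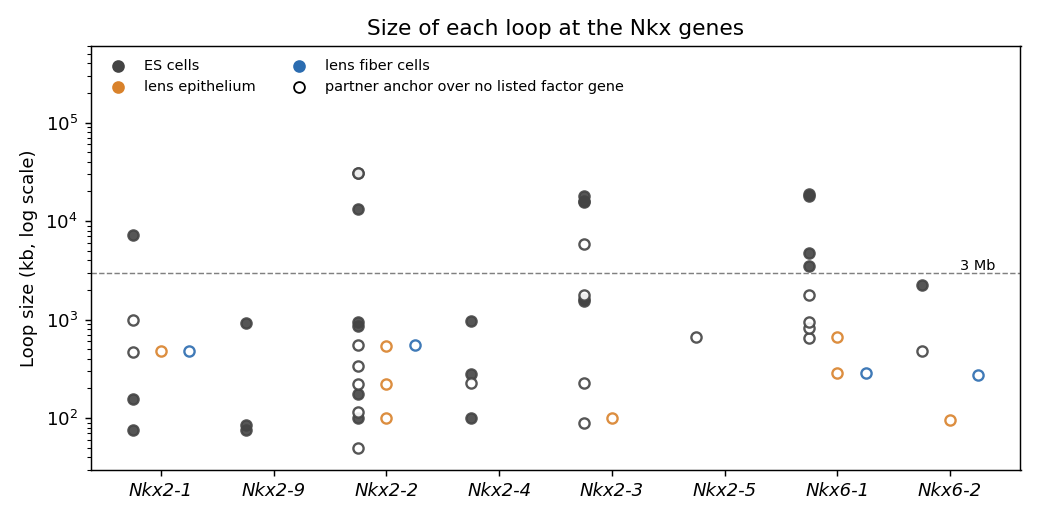
Size in kb on a log axis (y axis) of every loop at each Nkx gene (x axis) for the 3 cell types, with filled points where the partner anchor overlapped a listed developmental factor gene. Sizes of ES cell loops reach 31125 kb at Nkx2-2, whereas the lens loops stay between 95 and 660 kb and have no filled point.

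The partner anchors of the ES cell loops often lay on other developmental regulators. Of the 42 loops, 23 (54.8%) ended on a gene of the factor families, and these were 21 genes: 9 homeobox, 3 forkhead, 2 paired box and 2 Dmrt genes, and the rest from other families. For the 694 ES cell loops at the other factor genes the number was 168 (24.2%), and 4.70% of all loop anchors in ES cells overlapped such a gene. The 694 include the Nkx loops that ended on a factor gene outside the 8 members. The 168 include those of them whose Nkx anchor overlapped the Nkx gene body, so the compared sets are not separate. In lens, 0 of 8 epithelium and 0 of 4 fiber loops at Nkx genes ended on one, and at the other factor genes 2 of 297 and 1 of 275 did. None of the 23 loops between factors was shared with a lens list, whereas 4 of the other 19 were. The 23 had a median size of 1630 kb and a median ratio of observed to expected contacts of 10.5, against 555 kb and 4.22 for the other 19. With anchors of 5 and 10 kb alone, 13 of 25 ended on a factor gene. Limited to homeobox, paired box, forkhead and T-box partners, 18 of the 42 did, a count that has no counterpart here for the other factor genes. The largest of the 4 false discovery rates of a loop was at most 0.0070 among the 23 and at most 0.0381 among the 19. The families were listed after the partners were known, so the choice of families can itself raise the 54.8% above the 24.2% and 4.70%. For this reason no test was made on these splits, and the shares are a description only.

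At the Nkx2-1 locus, the ES cell loops joined Nkx2-1, Nkx2-9 and Pax9 to each other. The loop from Nkx2-1 to Nkx2-9 spanned 75 kb and held 73 observed contacts, where 12.5 were expected from the ring of map pixels around it. Nkx2-1 to Pax9 spanned 155 kb with 90 contacts against 7.87 expected, and Nkx2-9 to Pax9 spanned 85 kb with 65 against 11.3. All 3 had anchors of 5 kb, and those at the Nkx genes covered the start sites whose sequences are given above. Farther away, Nkx2-9 was joined over 935 kb to Foxa1, a forkhead factor of endoderm, with 26 contacts against 2.24 expected. A loop of 1000 kb from the Nkx2-1 start ended 0.627 kb from Foxa1, with 30 contacts against 4.90. Another loop of Nkx2-1 ended in a gene-poor stretch 470 kb on the other side, with 44 contacts against 16.4.

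**Figure D3:**
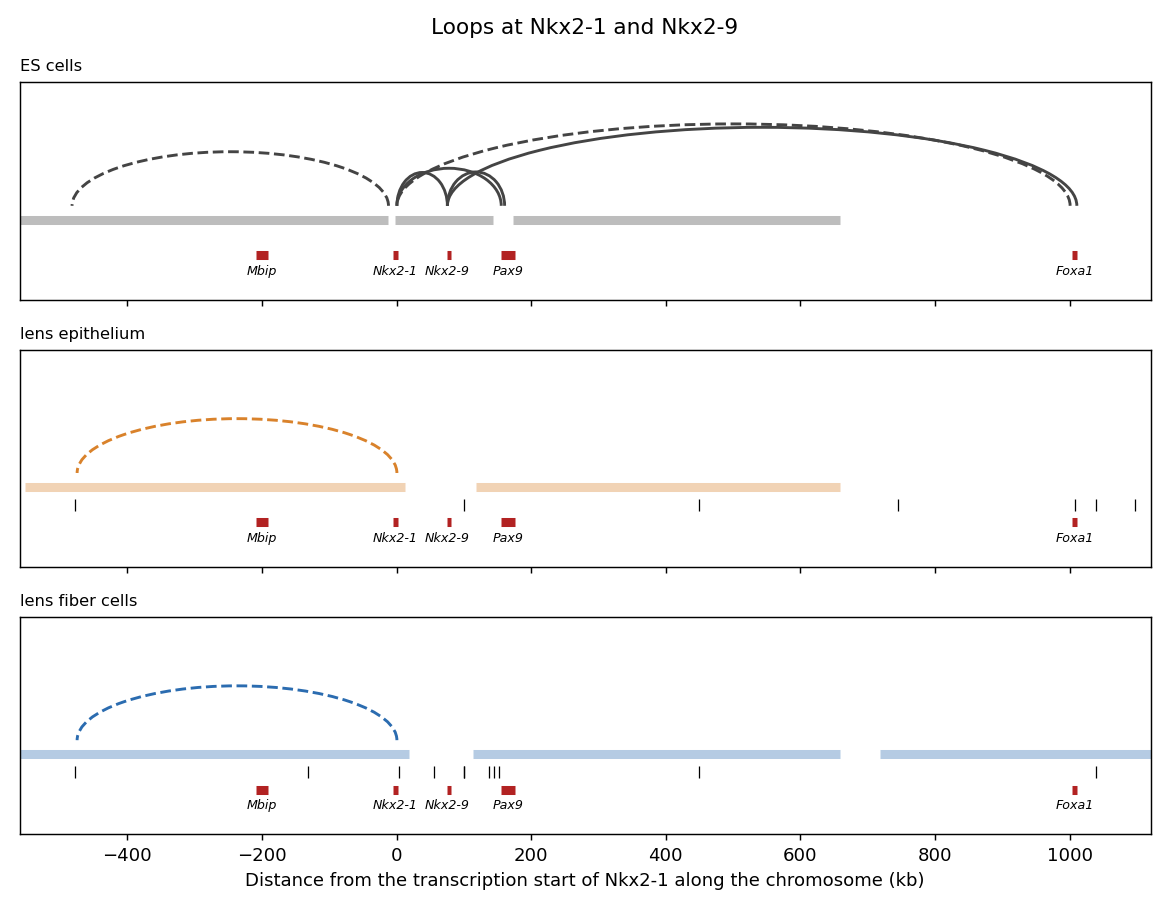
Loops (arcs), TADs (pale bars) and, for lens, CTCF peak summits (black ticks) around Nkx2-1, 1 panel per cell type, with distance from the Nkx2-1 start in kb on the x axis and genes in red. Solid arcs end on a listed factor gene and dashed arcs do not, and loops that leave the window are not drawn. The short loops among Nkx2-1, Nkx2-9 and Pax9 appear in ES cells, while each lens panel has 1 loop of 475 kb to the other side.

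None of these contacts between genes was listed in lens. Both lens lists held a single loop at Nkx2-1, of 475 kb, from 56525001-56550000 to 56050001-56075000, a stretch 180 kb from Brms1l. It had 104 contacts against 38.7 expected in epithelium and 152 against 52.6 in fiber cells. The ES cell loop of 470 kb ended in the same stretch, but the midpoints of the anchors at Nkx2-1 were more than 10 kb apart, so it was not counted as shared, while within 25 kb both ends matched. The TADs differed in the same place. In ES cells a TAD of 145 kb (56535001-56680000) began 1.91 kb from the Nkx2-1 start and also held Nkx2-9. In epithelium a TAD of 565 kb (55985001-56550000) and in fiber cells one of 675 kb (55880001-56555000) held Nkx2-1 and lay on the opposite side of the gene, leaving Nkx2-9 in no TAD. A CTCF peak was listed 4.31 kb upstream of the Nkx2-1 start in fiber cells, with a fold enrichment of 6.77 where the median of that list was 6.44. The nearest epithelium peak was 100 kb away.

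The Nkx2-2 locus held the corresponding loops in ES cells. Nkx2-2 was joined to Pax1 over 175 kb, with 63 contacts against 6.31 expected, and to Foxa2, the forkhead factor of floor plate and endoderm, over 860 kb, with 45 against 2.39. Nkx2-4 was joined to the same partners, to Pax1 over 280 kb with 36 contacts against 7.16 and to Foxa2 over 960 kb with 28 against 2.24. Nkx2-4 and Nkx2-2 were joined to each other over 100 kb, with 34 contacts against 6.37, by 5 kb anchors that covered neither start. Each Nkx pair was thus linked to its Pax gene and to a nearby Foxa gene. Insm1, a zinc finger factor of endocrine and neural progenitors, was 955 kb from the Nkx2-2 anchor, with 15 contacts against 1.58. Over still longer distances, a loop with 25 kb anchors led from Nkx2-2 to Meis2 at 31125 kb, with 17 contacts against 1.37 expected. A further loop of 30625 kb, with 16 contacts against 1.40, ended 304 kb from Tmco5.

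**Figure D4:**
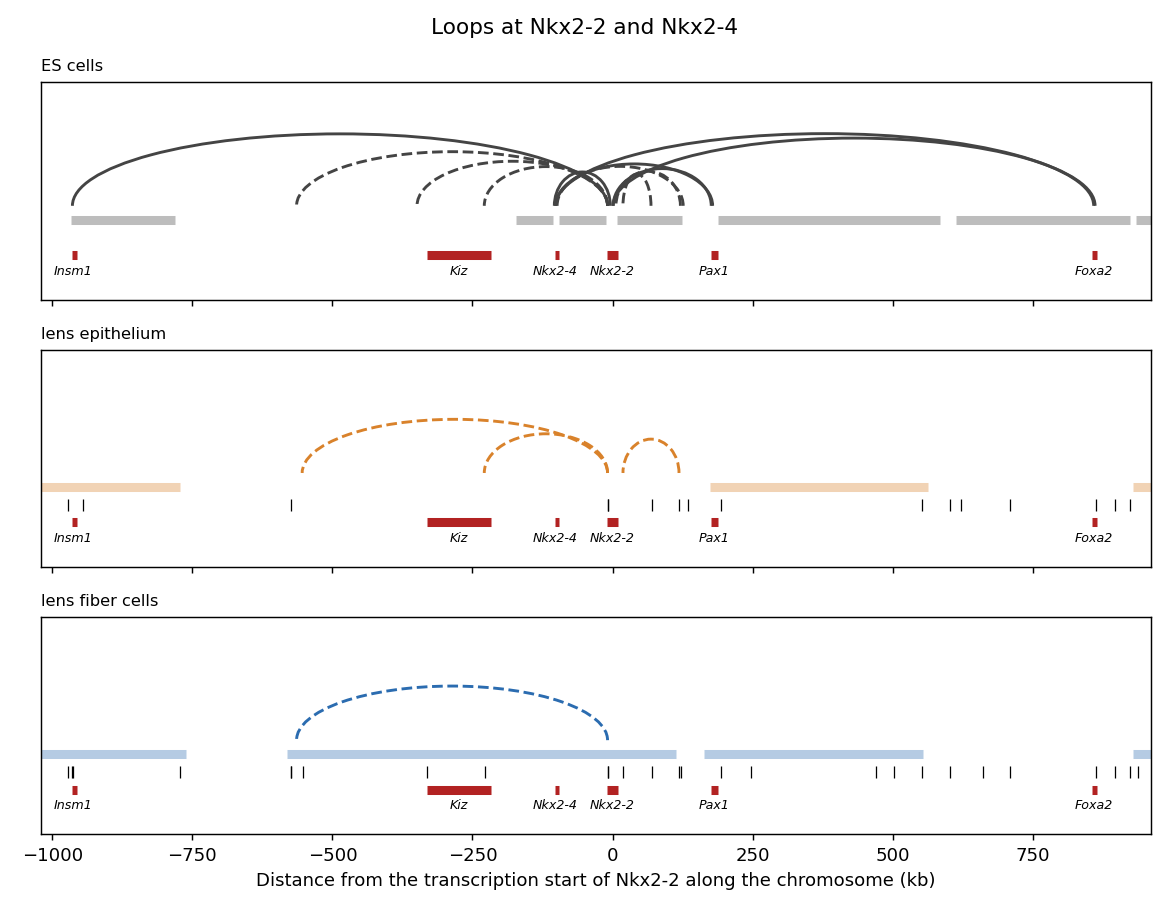
Loops (arcs), TADs (pale bars) and, for lens, CTCF peak summits (black ticks) around Nkx2-2, 1 panel per cell type, with distance from the Nkx2-2 start in kb on the x axis and genes in red. Solid arcs end on a listed factor gene and dashed arcs do not, and loops that leave the window are not drawn. Arcs to Pax1 and Foxa2 appear only in the ES cell panel, and the arc of 545 to 555 kb appears in all 3.

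The start and the far end of Nkx2-2 carried different loops. The 5 kb anchor over the annotated start (147185001-147190000) held no CTCF peak of either lens list, carried the ES cell loops to Pax1 and Foxa2, and had no loop in lens. The anchor over the far end of the gene (147175001-147180000) held 2 epithelium and 2 fiber CTCF peaks. It carried 4 loops in ES cells, 2 in epithelium and 1 in fiber cells. The loop of 555 kb from this anchor led to a stretch 108 kb from Ralgapa2. By the rule of midpoints within 10 kb, it was the only loop at an Nkx gene found in all 3 lists. It had 46 contacts against 6.10 expected in ES cells, 23 against 3.39 in epithelium (545 kb) and 25 against 4.76 in fiber cells. By overlap of both anchors its epithelium loop did not match, while the Nkx2-1 loop of 470 or 475 kb matched in all 3 lists. The loop of 220 kb to Kiz, a centrosome gene, was in ES cells, with 51 contacts against 8.45, and in epithelium, with 23 against 3.67, but not in the fiber list. Another epithelium loop, of 100 kb, had 45 contacts against 13.8. The TADs here were small in ES cells, where 85 kb and 115 kb TADs flanked the start of Nkx2-2 and a 65 kb TAD ended beside Nkx2-4, so that neither start lay in one. A single fiber TAD of 695 kb (146605001-147300000) held both genes whole, and the epithelium list had no TAD at either.

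Nkx2-3 in ES cells was joined to factor genes spread along chromosome 19. The loops to Tlx1, a homeobox gene of spleen development, over 1550 kb (39 contacts against 3.71 expected) and to Lbx1 over 1630 kb (33 against 2.92) had 10 kb anchors that overlapped only the edge of the window and did not reach the gene body. With 25 kb anchors it was joined to Vax1 over 15550 kb (17 contacts against 2.10), to Emx2 over 15850 kb (23 against 1.84) and to Dmrt1 and Dmrt3 over 18000 kb (21 against 3.34). A loop of 5925 kb ended on Cyp26a1 and Cyp26c1, which break down retinoic acid, and on Exoc6, with 17 contacts against 2.13. The other ES cell loops led to Frat1 and Frat2 at 1775 kb, to Hpse2 at 230 kb and to a site 5.39 kb from Got1 at 90 kb. This last loop was shared with the only epithelium loop of the gene, of 100 kb to Got1, which had 50 contacts against 23.0. The fiber list had none. TADs of 170, 110 and 135 kb held Nkx2-3 in ES cells, epithelium and fiber cells.

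Nkx6-1 in ES cells was joined to Prdm8 over 3475 kb (40 contacts against 4.85 expected), to Barhl2 over 4800 kb (30 against 5.10), to Tbx3 over 18000 kb (17 against 1.12) and to Lhx5 over 18775 kb (15 against 0.565). Tbx3 is a T-box factor of limb and heart, and Barhl2 and Lhx5 are homeobox factors of the developing nervous system. The ratio of 26.6 for Lhx5 was the highest of all 42 loops, but it rested on 15 contacts, the lowest count among them. The other 4 loops ran 1775 kb to Ptpn13, 950 kb to Hpse, 820 kb to Abraxas1 and Gpat3, and 650 kb to a stretch 101 kb from Gpat3. This 650 kb loop, with 129 contacts against 54.6, was shared with an epithelium loop of 660 kb (30 against 10.8), although the epithelium loop had a largest false discovery rate of 0.0963. A loop of 290 kb to a stretch whose nearest protein-coding gene was Nkx6-1 itself was in both lens lists, with 47 contacts against 16.2 in epithelium and 49 against 14.3 in fiber cells, and not in ES cells. The TAD that held Nkx6-1 was 760 kb in ES cells and 780 kb in epithelium. In fiber cells it was 305 kb, with a border 0.290 kb from the start of the gene.

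Nkx6-2 had 2 ES cell loops, to Ebf3, a helix-loop-helix factor of neurons, over 2270 kb (16 contacts against 1.18 expected) and to Caly over 480 kb (33 against 10.1). In lens it was joined to Inpp5a over 95 kb in epithelium (18 contacts against 5.89, largest false discovery rate 0.0659) and over 275 kb to a site 32.7 kb from Pwwp2b in fiber cells (100 against 51.2). None of these 4 loops was shared. Nkx2-5, the cardiac gene, had the fewest loops, with a single one in ES cells of 670 kb to Grm4 (31 contacts against 6.24), and it was the only member with no loop to a listed factor. It lay in a TAD of 205 kb in ES cells and in none in lens. Nkx6-2 was in a TAD of 80 kb in epithelium and touched one of 95 kb in fiber cells, and in ES cells it was in none.

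Few of the ES cell loops at these genes were found in lens. Of the 42, 4 were shared with epithelium and 1 with fiber cells, where 35.9% and 34.6% of all ES cell loops were shared, and 38 were in no other list. Among the 8 epithelium loops, 4 were shared with ES cells and 3 with fiber cells, where the whole list had 37.9% and 55.5%. Of the 4 fiber loops, 1 was shared with ES cells and 3 with epithelium, beside 38.1% and 57.8% of the list.

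In ES cells, the ratios of observed to expected contacts at the Nkx loops were high for the list, at low contacts. The median loop at an Nkx gene in ES cells held 33 contacts (range 15 to 129), below the median of 56 over the whole list, and its ratio had a median of 6.20 (2.14 to 26.6), above 3.06. In epithelium the median ratio was 2.98 and in fiber cells 3.15, beside 3.05 and 2.83 over the whole lists, at medians of 37.5 and 74.5 contacts beside 51 and 63. Long loops have few expected contacts, so their ratios rest on small counts. The 12 loops over 3 Mb held a median of 17 contacts, from 15 to 40. The 30 shorter ones had a median ratio of 5.21 at 38.5 contacts.

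**Figure D5:**
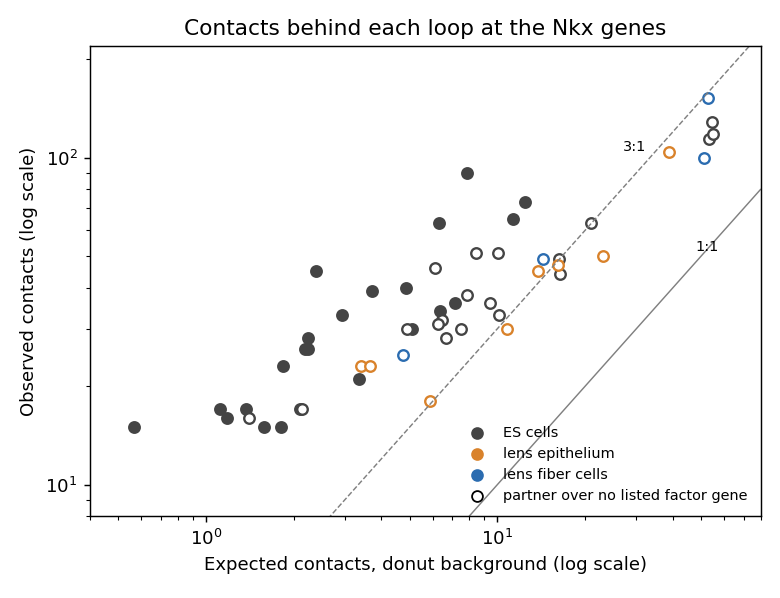
Observed contacts (y axis) against expected contacts (x axis) of each loop at an Nkx gene, both on log axes, for the 3 cell types. Filled points are loops whose partner anchor overlapped a listed factor gene. The filled points, all from ES cells, lie at low expected contacts and at ratios from 5.03 to 26.6, while the open ES cell points go down to 2.14.

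The start site lay under most of the ES cell anchors, mostly through the wide anchors. Counting each loop once for each Nkx gene it touched, 32 anchors in ES cells covered the annotated start and 12 did not. Among the 32, 20 had a factor gene at the partner anchor, 4 held a fiber CTCF peak at their own anchor and 1 was shared with a lens list. Among the 12, 5 had a factor partner, 5 held a fiber peak and 3 were shared. By gene, the anchors over the start in ES cells numbered 8 at Nkx6-1, 6 at Nkx2-3, 5 at Nkx2-2, 4 at Nkx2-1, 3 each at Nkx2-9 and Nkx2-4, 2 at Nkx6-2 and 1 at Nkx2-5. In epithelium 4 anchors and in fiber cells 2 covered a start, at Nkx2-1, Nkx6-1 and Nkx6-2 and at Nkx2-1 and Nkx6-2. All 17 anchors of 25 kb in ES cells covered a start, and an anchor of this width is wider than each of these gene bodies. Among anchors of 5 and 10 kb, 15 covered the start and 12 did not. Of these, 10 and 5 had a factor partner, 0 and 5 held a fiber peak and 0 and 3 were shared with a lens list. All 5 with a fiber peak were at Nkx2-2, and 4 of them were the same 5 kb anchor, counted once per loop. The difference in fiber peaks thus rests on 1 gene and was not tested.

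The loops at the Nkx genes mostly did not stay within 1 TAD in ES cells. Both anchors lay in the same TAD for 4 of 42 loops and in different TADs for 6, 23 had only 1 anchor in a TAD, and 9 had none. Over all ES cell loops these classes held 30.9%, 4.91%, 25.9% and 38.3%. In epithelium 3 of 8 and in fiber cells 3 of 4 loops lay within 1 TAD, beside 26.3% and 29.4% of the lists. A TAD touched the window of 7 of 8 genes in ES cells, with 43.4% of all genes, of 4 in epithelium with 22.8%, and of 6 in fiber cells with 31.6%. Among the other factor genes the shares were 62.4%, 44.4% and 55.1%. Nkx2-1, Nkx2-3 and Nkx6-1 were the members touched by a TAD in every list.

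CTCF peaks of the lens lists lay at about as small a share of the Nkx genes as of genes under 10 kb. A peak lay in the window of 1 of 8 genes in epithelium, where 31.2% of all genes and 15.7% of those under 10 kb had one, and of 2 of 8 in fiber cells, with 45.9% and 28.0%. Among the other factor genes the shares were 27.5% and 48.3%. All members but Nkx2-2 were under 10 kb. Nkx2-2 was the gene with peaks in epithelium, and Nkx2-1 and Nkx2-2 were those in fiber cells, so the short members had none in epithelium. At Nkx2-2 the 2 epithelium peaks had fold enrichments of 7.53 and 6.81 (list median 5.78) and the 2 fiber peaks 6.93 and 7.63 (list median 6.44), with summits 7.44 to 8.49 kb downstream of the start and inside the gene span. Of these, the peak 7.44 kb or 7.45 kb from the start overlapped between the lists, and the other ones did not. Outside the windows, the nearest peaks to the start were 7.65 kb (epithelium) and 7.68 kb (fiber) away at Nkx6-2, 15.2 kb in both at Nkx2-3, and 16.2 kb in both at Nkx6-1, where the peak had a fold enrichment of 10.5 in epithelium and 10.3 in fiber cells. At Nkx2-9 they were 23.7 and 21.4 kb away, at Nkx2-5 54.1 and 44.7 kb, and at Nkx2-4 93.0 and 92.6 kb.

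Both anchors held a peak of the same cell type in 0 of 8 epithelium loops and in 2 of 4 fiber loops, where 15.7% and 39.1% of the lists did. With 1 anchor occupied there were 5 epithelium and 2 fiber loops, and 3 and 0 had no peak at either anchor. Set against the fiber peaks, 5 of the 42 ES cell loops had a peak at both anchors, 20 at 1 and 17 at none, beside 33.2%, 43.0% and 23.8% of all ES cell loops. These peaks were measured in lens and say nothing of CTCF in ES cells.

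Other genes of the family and of the pathways in which the Nkx factors act were counted with the same window. Among 6 further Nkx genes, 4 had a loop in ES cells and 1 in each lens list. Nkx1-1 had 4 loops in ES cells, Nkx1-2 had 2 and Nkx2-6 had 1, with none of them in lens, and Nkx3-2, a regulator of somite and skeletal development, had 4, 2 and 2. Nkx6-3 had none in any list. Of 28 signals and factors that work with Nkx proteins, 20 had a loop in ES cells, 14 in epithelium and 13 in fiber cells. More loops in ES cells than in each lens list were seen for 15 of the 28, beside 16.2% of all genes and 53.7% of the other factor genes. In the ventral neural tube, where Shh induces Nkx2-2 and Nkx6-1, 8, 6 and 6 of 12 genes had a loop in ES cells, epithelium and fiber cells. The numbers were 3, 3 and 3 of 5 in the foregut list, 6, 5 and 4 of 6 in the heart list and 3, 0 and 0 of 5 in the pancreas list. Beside all these counts, a loop was found at 37.3%, 36.2% and 34.5% of all genes in ES cells, epithelium and fiber cells. Among the other factor genes it was found at 70.2%, 51.4% and 51.7%.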

How the data were processed

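Chromatin loops and TADs came from Hi-C of v6.5 ES cells and of both lens cell types, and CTCF peaks from ChIP-seq in lens. The authors aligned reads with BWA to mm10, the build in the submitters' processing notes, merged 2 Hi-C replicates per cell type, and called loops with HiCCUPS and TADs with Arrowhead of juicer_tools 2.13.06. The observed count in the deposited lists is the number of contacts in a loop's pixel, and the expected contacts are a score computed by HiCCUPS from its surroundings. The deposited false discovery rates are q-values of the 4 local backgrounds. The authors called peaks with MACS2, which gave a fold enrichment and the −log10 of the p-value and q-value. The depth of the maps was not analysed here and limits which loops could be called, and the value of 1 contact differs with it.

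Starting from these lists, anchors, TADs and peaks were intersected with gene bodies widened by 5 kb, with RefSeq genes and promoters of GRCm38.p6 (8 of 8 members matched in both tables), in Python 3.11.15, numpy 2.4.6, pandas 2.3.3 and matplotlib 3.10.9. Loops of separate lists were matched when their anchor midpoints differed by at most 10 kb at either end. All features are given from base 1. With 1 list per cell type, no test was made. Shares over 21631 protein-coding genes, and over the 7741 under 10 kb, stand beside the counts. On simulated lists of 2000 loops, 5 of 5 checks gave the known answer. Named genes were the 8 members, genes at or nearest to partner anchors, neighbours, the family and pathway lists, and at most 5 genes most like the member with most loops. The members and lists were chosen with earlier results of these data known, and the factor families after the partners had been seen. Compartments, motif calls under the peaks and expression were not analysed here. Values for a few withheld items were left out.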

Additional observations from a re-analysis of the deposited data

How the results depend on the processing

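Of 98 values under alternative settings, 73 stayed within 1.5 times the reported value and 25 did not. With anchors of 5 and 10 kb only, ES cells had 25 loops at the Nkx genes with a median of 470 kb, and fiber cells had 2 loops at 2 genes with a median of 422.5 kb. With the gene body widened by 25 kb, fiber cells had 9 loops, and the CTCF peaks numbered 7 in epithelium and 11 in fiber cells. When the anchor had to cover the transcription start, a setting chosen after seeing the data, 4 loops at 3 genes were left in epithelium and 2 loops at 2 genes in fiber cells. With sharing within 25 kb, 4 ES cell loops were shared with fiber cells, 5 epithelium loops with fiber cells and 2 fiber loops with ES cells. With sharing by overlap of both anchors, these were 2, 1 and 2, and 1 fiber loop was shared with epithelium. TADs numbered 4 in ES cells when they had to hold the whole gene, and 2, 2 and 3 in ES cells, epithelium and fiber cells when limited to at least 200 kb. CTCF at both anchors was found in 1 epithelium loop with anchors widened by 5 kb, in 4 epithelium loops with the fiber peak list and in 1 fiber loop with the epithelium peak list. The number of loops at the Nkx genes stayed the highest in ES cells under each setting tried for it.

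No paired analysis was possible because the authors merged the replicates into 1 list per cell type before loops were called. For the same reason no replicate could be left out. Small counts of contacts, as few as 15 in ES cells, and the 25 kb anchors of all 12 loops over 3 Mb limit what can be said of any single long loop.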
